A study of Mus musculus with 4 samples.

Results

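The genes described here are the fibroblast growth factor (FGF) receptors Fgfr1, Fgfr2, Fgfr3 and Fgfr4, the co-receptor Klb, the hormone Fgf21, the receptors Met and Mst1r, and the protease gene Hgfac. They were matched by gene symbol in the deposited expression table, and 9 of its 31828 genes are members. Stranded RNA-seq was carried out on the mouse hepatocyte line AML12, which is immortalised. The cells were plated flat on a dish (2D) or within Matrigel, a gel of basement membrane proteins (3D), to ask how expression differs between the cultures. There were 2 libraries per culture and 4 in all. All cells received 1 mM hydroxyurea, which blocks DNA replication. The exposure lasted 24 h in the 2D libraries but 36 h in the 3D ones, so culture and treatment time cannot be told apart. The values are TPM, a transcript level corrected for length and relative within a library, and the read depth behind them is unknown.

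FGFs bind receptor tyrosine kinases together with heparan sulfate on the cell surface. The endocrine members of the family need a klotho protein as well. In hepatocytes, FGF15 from the intestine acts through FGFR4 and KLB to restrain bile acid synthesis, and FGF21 is released by the liver in fasting and stress and acts on other tissues through FGFR1 and KLB. Hepatocyte growth factor (HGF) comes mainly from stromal cells and is cleaved by proteases such as the HGF activator, the product of Hgfac, before it activates MET, while the related factor macrophage-stimulating protein, encoded by Mst1, binds MST1R.

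Fgfr2 and Fgfr4 were higher and Met and Hgfac were lower in 3D culture. The largest of these differences was that of Fgfr2, at 0.72 ± 0.13 on the log2(TPM + 1) scale (standard error, n = 2 per culture). Fgfr3 did not pass the test, and Fgfr1, Klb, Mst1r and Fgf21 lay under a mean of 1 TPM, the level required for testing. Of the 5 members tested with limma, 2 were higher and 2 were lower in 3D at an adjusted p under 0.05. When no level was required for testing, only Fgfr2 passed. Among all 14116 tested genes, 50.5% passed in either direction, 23.4% with a higher level and 27.1% with a lower level in 3D. The members' share therefore has to be read against a table in which about as many genes passed as did not. The labels do not say that the libraries came from separate cultures, so the p-values measure the spread between these libraries, which may be technical. In these bulk samples, fewer cells that express a gene and less RNA per cell cannot be told apart.

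The promoters of the 4 members that passed the test and that of Fgf21 are shown because they carry different sequence features, from RefSeq on the GRCm38.p6 build. A RefSeq promoter was found for 8 of the 9 members, all except Fgfr1. Each sequence holds 300 bases, 250 before and 50 after the start site, and capitals mark matches to the motifs named after the sequences.
Fgfr2: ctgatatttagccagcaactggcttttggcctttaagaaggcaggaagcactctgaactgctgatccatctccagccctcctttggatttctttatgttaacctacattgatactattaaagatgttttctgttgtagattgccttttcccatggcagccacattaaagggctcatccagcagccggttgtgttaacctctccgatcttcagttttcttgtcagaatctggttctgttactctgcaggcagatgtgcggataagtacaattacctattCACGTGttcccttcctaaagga
Fgfr4: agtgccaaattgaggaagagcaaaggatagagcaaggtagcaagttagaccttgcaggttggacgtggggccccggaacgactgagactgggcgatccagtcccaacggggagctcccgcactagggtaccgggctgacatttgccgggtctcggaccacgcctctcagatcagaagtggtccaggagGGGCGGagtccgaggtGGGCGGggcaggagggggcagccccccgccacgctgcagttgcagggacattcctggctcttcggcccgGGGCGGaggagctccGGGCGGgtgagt
Met: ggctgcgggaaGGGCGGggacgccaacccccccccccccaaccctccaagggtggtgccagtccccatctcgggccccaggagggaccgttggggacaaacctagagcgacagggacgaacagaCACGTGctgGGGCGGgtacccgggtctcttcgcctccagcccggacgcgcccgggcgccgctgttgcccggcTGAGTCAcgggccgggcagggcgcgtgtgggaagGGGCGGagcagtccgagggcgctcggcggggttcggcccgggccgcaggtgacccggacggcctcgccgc
Hgfac: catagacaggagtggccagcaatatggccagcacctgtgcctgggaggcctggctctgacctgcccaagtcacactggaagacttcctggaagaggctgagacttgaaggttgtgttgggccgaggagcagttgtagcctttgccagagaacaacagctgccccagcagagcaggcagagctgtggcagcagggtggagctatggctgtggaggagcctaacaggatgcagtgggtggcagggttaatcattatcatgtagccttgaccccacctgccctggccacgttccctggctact
Fgf21: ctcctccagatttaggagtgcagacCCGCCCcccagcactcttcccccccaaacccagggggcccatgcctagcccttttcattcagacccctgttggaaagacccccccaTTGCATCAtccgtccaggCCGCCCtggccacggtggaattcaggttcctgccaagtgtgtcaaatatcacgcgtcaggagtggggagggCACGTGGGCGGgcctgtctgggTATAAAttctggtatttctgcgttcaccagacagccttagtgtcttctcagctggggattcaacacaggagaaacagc

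The Fgfr2 promoter lies at chr7:130266759-130267058 on the minus strand, and that of Fgf21 at chr7:45615441-45615740, also on the minus strand. The other 3 are on the plus strand, with Fgfr4 at chr13:55152568-55152867, Met at chr6:17463707-17464006 and Hgfac at chr5:35041259-35041558. The motifs were searched on both strands, and their share is that of 32851 RefSeq promoters of the same length. They were the GC box GGGCGG (35.7% of promoters), the E-box CACGTG (7.15%), the AP-1 site TGANTCA (7.81%), the TATA box TATAAA (13.6%), the CCAAT box CCAAT (37.4%), the core of the amino acid response element TGATGNAA (3.97%), the HNF4 site CAAAGTCCA (0.475%) and the ETS core CCGGAAG (8.86%).

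The Met and Fgfr4 promoters were rich in GC, with 75.7% and 65.3% G or C against a median of 52.7% over all promoters. The RefSeq windows of Fgfr3, which did not pass the test and are not shown, had 69.7% and 73.0% and also held GC boxes. The Met window held GC boxes at -239, -117 and -20, an AP-1 site at -54 and an E-box at -126, counted from the start site as 0 to the first base of the match. The Fgfr4 window held GC boxes at -62, -46, 23 and 38. By contrast, the Fgfr2 window had 43.7% G or C and a single match, an E-box at 28. No motif matched in the Hgfac window, which had 58.3% G or C. The Fgf21 window held a TATA box at -28, an amino acid response element core at -139 on the minus strand, GC boxes at -225, -121 and -45, and an E-box at -50 that overlaps the last of these. The 2 members that were higher in 3D shared no searched motif, and neither did the 2 that were lower. These matches describe letters in the window and do not show binding.

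Among the FGF receptors, Fgfr4, the main FGF receptor of hepatocytes, had the highest level in every library. It measured 12.5 and 13.3 TPM in 2D and 15.0 and 16.7 TPM in 3D. Both 3D libraries lay above both 2D libraries. The mean went from 12.9 ± 0.547 to 15.8 ± 1.18 TPM (SD, n = 2), a log2 difference of 0.28 ± 0.09 (standard error) with an adjusted p of 0.0496. This value lies just inside the threshold. With single libraries left out, the adjusted p was 0.147 without 2D replicate 1, 0.0832 without 2D replicate 2, 0.0766 without 3D replicate 1 and 0.209 without 3D replicate 2, and the difference passed in 6 of 13 alternative analyses. The gene (ENSMUSG00000005320) spans chr13:55152640-55168759 on GRCm38, and none of its 3542 exonic bases is shared with another gene.

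Fgfr2, whose epithelial splice form receives FGF7 and FGF10, had 1.79 and 1.45 TPM in 2D and 3.21 and 3.39 TPM in 3D. The 3D libraries were close to each other and lay above both 2D libraries. The mean rose from 1.62 ± 0.241 to 3.30 ± 0.130 TPM (SD, n = 2), with a log2 difference of 0.72 ± 0.13 and an adjusted p of 0.00997. Of all tested genes, 83.2% changed by less in either direction, against 46.4% for Fgfr4. Because 1 TPM is added before taking logs, the log2 value understates the change of a gene at so low a level. The difference passed in 11 of 12 alternatives that include the gene and was lost without 3D replicate 2, where the adjusted p was 0.0555.

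The annotated span of Fgfr2 (ENSMUSG00000030849) is chr7:130162451-133123350 on the minus strand, 2960900 bases long. Its upper end lies 2856542 bases beyond the RefSeq start site at 130266808. One of its 27 annotated transcripts has 2 exons that share 314 bases, 3.04% of the exonic sequence of Fgfr2, with Ctbp2 on the same strand. Ctbp2, a transcriptional co-repressor named here for this overlap after its values were seen, had 78.6 and 85.1 TPM in 2D and 58.5 and 65.8 TPM in 3D, a log2 difference of -0.39 with an adjusted p of 0.0149 that was lost without 2D replicate 2 (0.0598) and without 3D replicate 1 (0.0590). Its 3D libraries were lower and those of Fgfr2 higher than the 2D libraries, and how the quantification split reads in the shared exons was not tested.

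Fgfr3 had 4.32 and 6.09 TPM in 2D and 5.93 and 5.70 TPM in 3D. Both 3D values lay between the 2D values. The log2 difference was 0.15 ± 0.16 with an adjusted p of 0.476, and it turned to -0.06 without 2D replicate 1. The 2D libraries alone spanned more than the difference between the culture means of 5.20 ± 1.25 and 5.82 ± 0.161 TPM. Fgfr3 (ENSMUSG00000054252, chr5:33721674-33737068) shares 998 exonic bases, 13.9% of its total, with G630022F23Rik on the opposite strand, which had at most 0.0335 TPM in any library.

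Fgfr1 (ENSMUSG00000031565, chr8:25513654-25575718), the receptor through which FGF21 acts in fat, measured 0.430 and 0.776 TPM in 2D and 0.826 and 0.823 TPM in 3D. Both 3D libraries were above both 2D libraries, by a margin smaller than the gap between the 2D libraries. Klb (ENSMUSG00000029195, chr5:65348314-65384007), the co-receptor for FGF15 and FGF21, had 0.262 and 0.0654 TPM in 2D and 0.448 and 0.425 TPM in 3D. Its 3D libraries again lay above the 2D libraries, and the 2D libraries differed widely. Both genes were under the mean of 1 TPM and were not tested. Without that requirement, the log2 differences were 0.20 for Fgfr1 and 0.31 for Klb, with adjusted p of 0.461 and 0.183. Libraries of the cultures did not overlap for 77.5% of tested genes and for 35.5% of genes under a mean of 1 TPM. Such separation was seen for 4 of the 5 tested members and for 2 of the 4 untested ones.

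**Figure D1:**
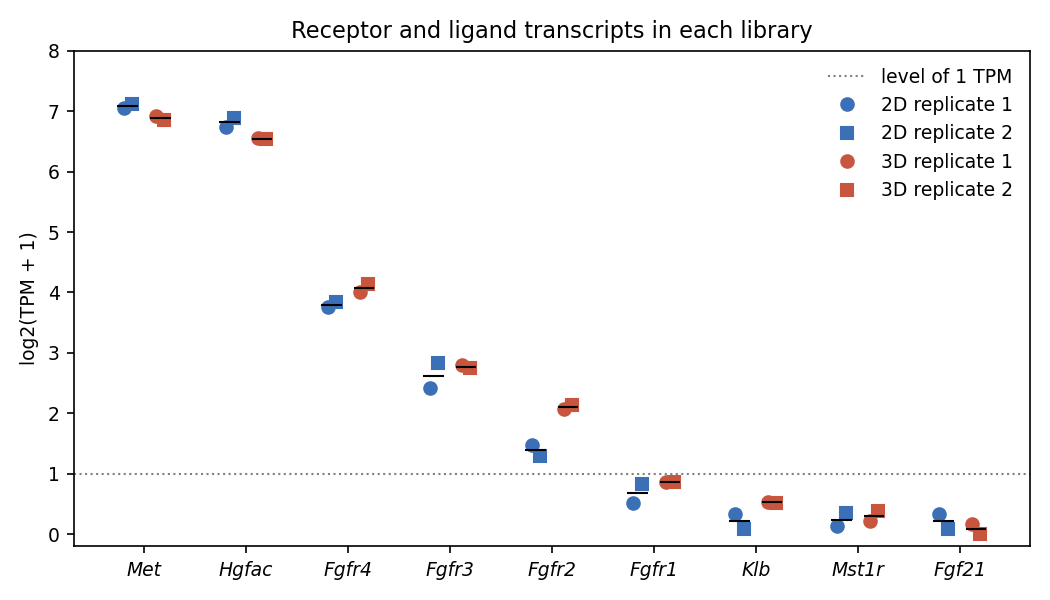
Level of each member in each library on the log2(TPM + 1) scale, with 2D libraries in blue, 3D libraries in red, circles for replicate 1, squares for replicate 2, a short line at each culture's mean and a dotted line at 1 TPM. Met and Hgfac lie between 91.6 and 138.6 TPM, the FGF receptors between 0.430 and 16.7 TPM, and Klb, Mst1r and Fgf21 at no more than 0.448 TPM in every library.

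The order of the FGF receptors was the same in all libraries, from Fgfr4 through Fgfr3 and Fgfr2 to Fgfr1. In neither culture did the ranges of neighbours in this order overlap. The 4 receptors summed to 19.0 and 21.6 TPM in 2D and to 25.0 and 26.6 TPM in 3D. Within this sum, Fgfr4 took 63.5 ± 2.94% in 2D and 61.4 ± 1.85% in 3D (SD, n = 2), and the libraries overlapped. Fgfr2 took 9.42% and 6.73% in the 2D libraries and 12.8% in both 3D libraries, and its share was thus higher in both 3D libraries. The shares of Fgfr3 and Fgfr1 overlapped between the cultures, at 25.5 ± 3.90% and 22.6 ± 1.63% for Fgfr3 and at 2.93 ± 0.948% and 3.20 ± 0.149% for Fgfr1. The ratio of Fgfr4 to Fgfr2 was 6.96 and 9.13 in 2D and 4.68 and 4.92 in 3D. With 2 libraries per culture, the smallest p of an exact two-sided permutation test is 0.333, and shares and ratios are given as a description. The gene-level values do not separate the splice forms of Fgfr1, Fgfr2 and Fgfr3 that decide which FGFs they bind.

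**Figure D2:**
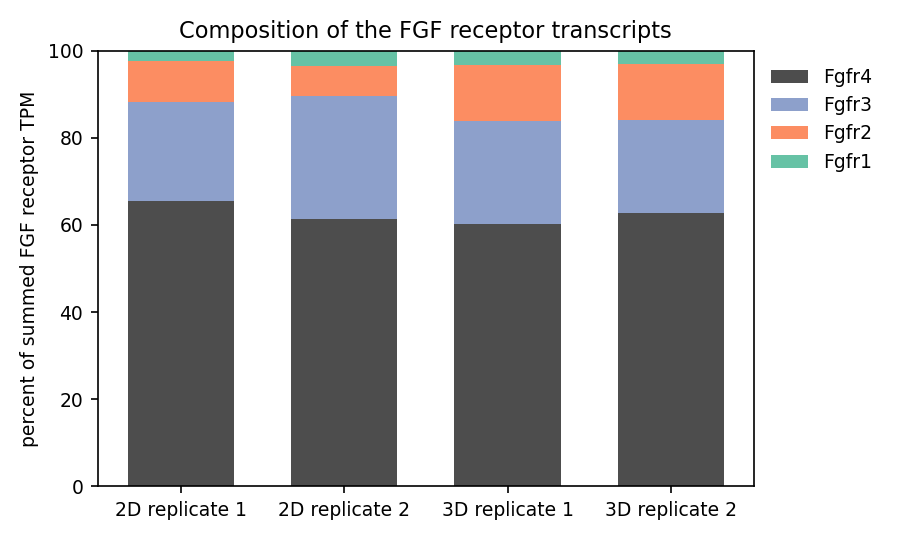
Share of each FGF receptor in the summed TPM of Fgfr1 to Fgfr4, in percent, as stacked bars for each of the 4 libraries. Fgfr4 takes between 60.1% and 65.6% in every library, and the part of Fgfr2 is larger in both 3D libraries, at 12.8%, than in the 2D libraries.

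Met, the HGF receptor, was the most abundant member, with 131.5 and 138.6 TPM in 2D and 119.8 and 114.3 TPM in 3D. Both 3D libraries were below both 2D libraries. The mean fell from 135 ± 5.00 to 117 ± 3.94 TPM (SD, n = 2), with a log2 difference of -0.20 ± 0.05 and an adjusted p of 0.0272. The change was small, and 35.5% of tested genes changed by less. Without 2D replicate 2 the adjusted p was 0.0802, without 3D replicate 1 it was 0.0711, and without 3D replicate 2 it was 0.139. The difference passed in 7 of 13 alternatives. Met (ENSMUSG00000009376) spans chr6:17463800-17573980, with 7679 exonic bases that no other gene shares.

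Hgfac, a secreted serine protease that cleaves pro-HGF and is made chiefly by hepatocytes, measured 106.1 and 117.5 TPM in 2D and 93.2 and 91.6 TPM in 3D. It was lower in both 3D libraries. The mean fell from 112 ± 8.03 to 92.4 ± 1.11 TPM (SD, n = 2), a log2 difference of -0.27 ± 0.06 with an adjusted p of 0.0224. The difference was lost without 3D replicate 1 (adjusted p = 0.0828) and without 3D replicate 2 (adjusted p = 0.0988), and passed in 10 of 13 alternatives. The gene (ENSMUSG00000029102) spans chr5:35041509-35048461. The ratio of Met to Hgfac stayed between 1.18 and 1.29 in the 4 libraries, with 1.24 and 1.18 in 2D and 1.29 and 1.25 in 3D. The ratio of Met to Fgfr4 was lower in 3D, at 7.98 and 6.85 against 10.5 in both 2D libraries.

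Mst1r (ENSMUSG00000032584, chr9:107906873-107920383) was near the floor of the table, with 0.0985 and 0.270 TPM in 2D and 0.161 and 0.298 TPM in 3D. The cultures overlapped. Mst1, which encodes its ligand, was by contrast abundant, at 124.4 and 129.6 TPM in 2D and 116.5 and 116.8 TPM in 3D, with a log2 difference of -0.12 that did not pass (adjusted p = 0.0726). These cells thus held much more RNA of the ligand than of its receptor, in both cultures.

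Fgf21 (ENSMUSG00000030827, chr7:45613886-45615490) had 0.265 and 0.0630 TPM in 2D. In 3D it had 0.127 TPM in replicate 1 and was listed at 0 in replicate 2, where a 0 can be a failed estimate. The cultures overlapped, and at this level no difference could be assessed. In 2D the ranges of Mst1r, Fgf21 and Klb overlapped, so that their order is not resolved. In 3D the ranges of Klb, Mst1r and Fgf21 did not overlap, but at so low a level their order is not resolved either.

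**Figure D3:**
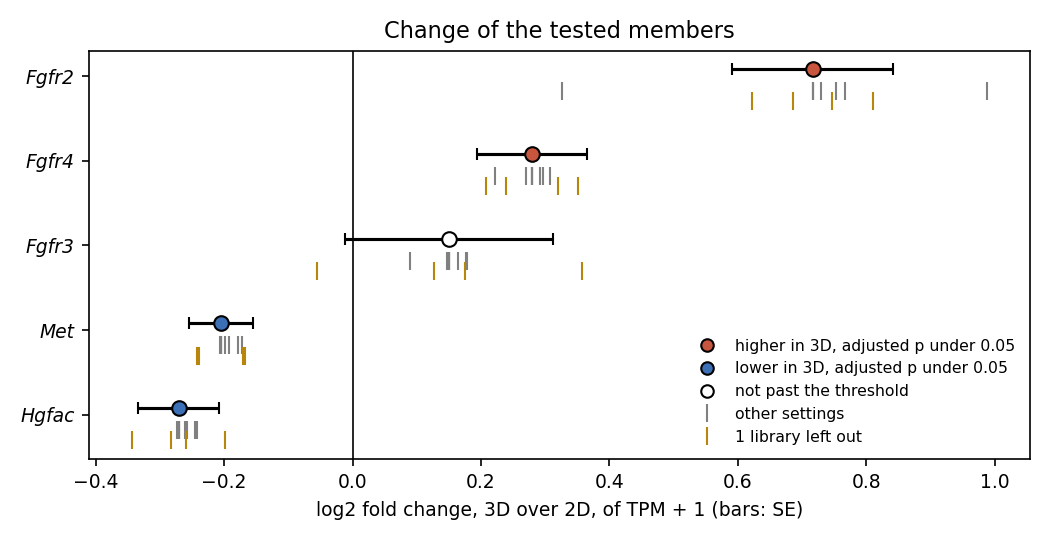
Log2 difference of 3D against 2D on log2(TPM + 1) for the 5 tested members, with bars for the standard error of the limma fit, grey ticks for alternative settings and brown ticks for fits with 1 library left out. Fgfr2 lies at 0.72, Fgfr4 at 0.28, Hgfac at -0.27 and Met at -0.20. With a pseudocount of 5, Fgfr2 was at 0.33 and Fgfr4 at 0.22.

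Other FGF family genes, here the list of FGF ligands, were examined next to the receptors. The counts of this and all later lists stand beside 23.4% of all tested genes higher and 27.1% lower in 3D. Of 21 FGF genes listed besides Fgf21, 19 were in the table and 4 had a mean of at least 1 TPM. Of these 4, 3 were higher and 1 was lower in 3D, with a median log2 difference of 0.49 against -0.04 over all tested genes. Fgf1, which binds every FGF receptor, had 2.50 and 2.54 TPM in 2D and 31.9 and 30.1 TPM in 3D. This was the largest change of the list, with a log2 difference of 3.18 ± 0.08 and an adjusted p of 2.02e-04. The ratio of Fgf1 to Fgfr4 was 0.200 and 0.192 in 2D and 2.125 and 1.805 in 3D, so the ligand went from below to above its most abundant receptor in RNA level. Fgf7, a ligand of the epithelial form of FGFR2, had 0.882 and 0.941 TPM in 2D and 1.57 and 1.79 TPM in 3D (log2 difference 0.49, adjusted p = 0.0339). It lay under 1 TPM in both 2D libraries and entered the test, and the count of 3 higher genes, through its 3D level. Fgf11 rose by 0.49 (adjusted p = 0.0134) and Fgf13 fell by 0.54 (adjusted p = 0.00226). Both are in the list of FGF ligands but encode FGF homologous factors, which stay inside the cell and are not known as receptor ligands. Without 3D replicate 1 or without 3D replicate 2, only 2 of the 4 passed, with Fgf11 at an adjusted p of 0.0703 and 0.0645. Fgf7 was lost without any 1 of the 4 libraries (adjusted p between 0.0863 and 0.144), with no filter (0.0624) and with the replicate block (0.0609). Fgf15, the ligand of FGFR4 with KLB, had 0.173 and 0.158 TPM in 2D and 0.0268 and 0.0343 TPM in 3D, and Fgf2 had at most 0.173 TPM. Fgf15 and Fgf2 were chosen after their values were seen.

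Among co-receptors, binding proteins, adaptors and splicing regulators of the FGF pathway, 9 of 14 genes in the table were tested, of which 2 rose and 1 fell. Flrt3, a membrane protein that binds FGF receptors, rose from 11.0 and 10.3 TPM to 19.5 and 20.2 TPM (log2 difference 0.84, adjusted p = 0.00154). The secreted carriers of FGFs moved in opposite directions. Fgfbp3 fell by 0.55 (adjusted p = 0.00191), while Fgfbp1 rose by 0.25 (adjusted p = 0.0187). The call of Fgfbp1 was lost without 2D replicate 2, 3D replicate 1 or 3D replicate 2, where the adjusted p was 0.0601, 0.0676 and 0.0999. Kl, which encodes the klotho that serves FGF23, lay between 0.0492 and 0.0712 TPM, and the epithelial splicing regulator Esrp1 at no more than 0.177 TPM. Esrp2, which acts on the same exons of FGF receptors, had 21.3 and 24.7 TPM in 2D and 19.4 and 19.6 TPM in 3D and did not pass (adjusted p = 0.1004). Kl, Esrp1 and Esrp2 were chosen after their values were seen. For enzymes that build and edit heparan sulfate, 6 of 17 tested genes rose and 3 fell. Their median was 0.04, and it was -0.02 without 2D replicate 1 and 0.11 without 2D replicate 2. Extl2, a glycosyltransferase gene, rose by 1.16, and the sulfotransferase genes Hs3st3b1 and Hs3st6 moved by 1.10 and -0.91.

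In the list of HGF and MST1 ligands, activating proteases and inhibitors, 6 of 14 genes in the table were tested, of which 2 rose and 1 fell. Hgf itself was listed at 0.0545 and 0.0173 TPM in 2D and at 0.0024 and 0 TPM in 3D. The hepsin gene Hpn, at no more than 0.293 TPM, and the matriptase gene St14, between 0.327 and 0.703 TPM, encode further activators of pro-HGF and were not tested. The prothrombin gene F2 had 0.0539 and 0.0434 TPM in 2D and 1.66 and 1.29 TPM in 3D, under the mean required for testing, and with no filter its adjusted p was 0.00710. Hgf, Hpn, St14 and F2 were chosen after their values were seen. Spint2, an inhibitor of HGF activator, hepsin and matriptase, rose from 82.1 and 89.2 TPM to 137 and 146 TPM, with a log2 difference of 0.72 and an adjusted p of 0.00141. Its 3D libraries were well above the 2D libraries, whereas Hgfac went the other way. The plasminogen activators, with levels above 15 TPM in every library, also moved in opposite directions. Plat had 23.0 and 26.2 TPM in 2D and 34.8 and 36.1 TPM in 3D (log2 difference 0.51, adjusted p = 0.00774), and Plau had 20.3 and 19.3 TPM in 2D and 15.9 and 15.7 TPM in 3D (log2 difference -0.30, adjusted p = 0.0194). The call of Plau was lost without 2D replicate 1, 3D replicate 1 or 3D replicate 2, with adjusted p of 0.0659, 0.0825 and 0.0918.

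Partners and signal adaptors of MET were divided in direction. All 36 were tested, and 11 rose, 11 fell and 14 did not pass, with a median log2 difference of 0.04. Of the 11 that rose, 1 was under 1 TPM in 2D and entered the test through its 3D level. Without 3D replicate 1, 14 of the list passed, and without 3D replicate 2, 13 did. Plxnb2, a semaphorin receptor and the most abundant of the list, fell from 792.1 and 848.5 TPM to 609.6 and 600.8 TPM (log2 difference -0.44, adjusted p = 0.00227). Nrp1 fell by 1.02 (adjusted p = 6.70e-04), while its relative Nrp2 rose by 0.86 (adjusted p = 0.00222). For feedback and target genes of the ERK pathway, which FGF receptors and MET both feed, 7 of 21 tested genes rose, 7 fell and 7 did not pass. The cyclin gene Ccnd1 rose by 0.77 (adjusted p = 4.40e-04) and the AP-1 subunit gene Fosl1 fell by 0.89 (adjusted p = 9.96e-04). The feedback inhibitor gene Spry1, 1 of the 7 that rose, had 0.556 and 0.319 TPM in 2D and 1.97 and 2.28 TPM in 3D, so it entered the test through its 3D level.

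**Figure D4:**
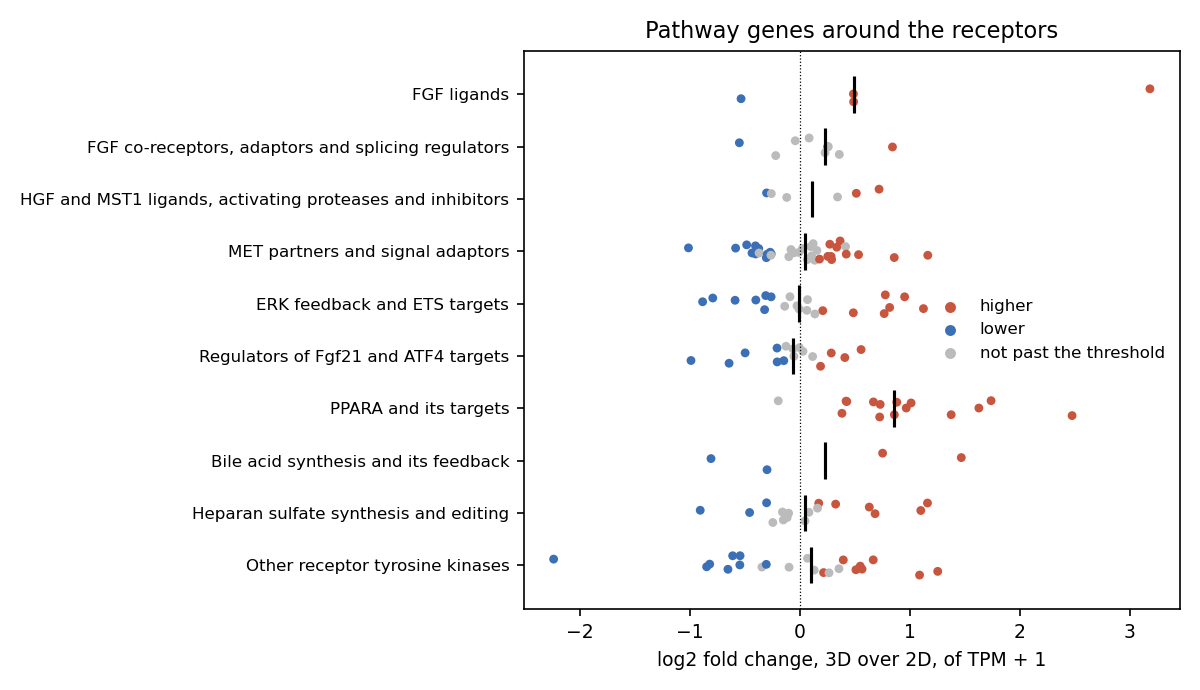
Log2 difference of 3D against 2D on log2(TPM + 1) for each tested gene of each pathway list, with 1 point per gene, red for higher and blue for lower in 3D at an adjusted p under 0.05, grey for not past the threshold, and a black bar at the list's median. The list of PPARA and its targets has 14 of 15 genes higher in 3D, while MET partners and the ERK list are split evenly between the directions.

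Regulators and co-regulated genes of Fgf21 were measured because Fgf21 itself was near 0. PPARA, a nuclear receptor of fatty acids, drives Fgf21 in the fasting liver. Of 19 genes in the table from the list of PPARA and its targets, 15 were tested and 4 lay under a mean of 1 TPM. Of the 15, 14 rose, none fell and 1 did not pass, while 23.4% of all tested genes rose. The median log2 difference of the list was 0.86. Like the other lists, it was chosen with earlier results of these data known. One of the 14 was under 1 TPM in 2D and entered the test through its 3D level. Cpt1a, which admits fatty acids to mitochondria, rose from 47.7 and 50.6 TPM to 157 and 151 TPM (log2 difference 1.63, adjusted p = 2.41e-04). Acot1, an acyl-CoA thioesterase gene, rose by 2.48 (adjusted p = 1.92e-04). Fgf21 itself was at too low a level for the test, and its values in the cultures overlapped.

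ATF4, the transcription factor that drives Fgf21 in amino acid and endoplasmic reticulum stress, had abundant RNA, with 456 and 431 TPM in 2D and 401 and 399 TPM in 3D. Of the 16 genes in the list of Fgf21 regulators and ATF4 targets, 4 rose and 6 fell. Asns, which encodes asparagine synthetase, fell by 0.99 (adjusted p = 3.35e-04), and Chac1, a glutathione-degrading enzyme gene, fell by 0.65 (adjusted p = 0.00148). Atf4 had a log2 difference of -0.15 with an adjusted p of 0.0388, which was lost in 9 of 13 alternatives. These were the fits without 2D replicate 1 (0.0800), 3D replicate 1 (0.165) or 3D replicate 2 (0.178), and those with no filter (0.0775), median centring (0.0993), quantile normalization (0.0596), rescaling without mitochondrial and the 20 highest genes (0.0696), the replicate block (0.0765) and a constant prior variance (0.116). Of this list only 3 genes passed without 3D replicate 1 and only 4 without 3D replicate 2.

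The bile acid branch served by FGFR4 and KLB was mostly low. Of 9 genes in the table, 4 were tested, of which 2 rose and 2 fell. Hnf4a, a hepatocyte transcription factor, rose from 56.7 and 57.6 TPM to 164 and 156 TPM (log2 difference 1.47), and Cyp27a1, of the alternative pathway of bile acid synthesis, rose by 0.75. Nr1h4, the bile acid receptor FXR, fell by 0.30, and Abcb11, the bile salt export pump, fell by 0.81, with adjusted p of 0.00474 and 0.00997. Abcb11 had 1.61 and 1.90 TPM in 2D and 0.641 and 0.501 TPM in 3D and entered the test through its 2D level. Cyp7a1, the rate-limiting enzyme of bile acid synthesis and the best known target of FGF15 signalling, reached at most 0.0436 TPM, and Cyp8b1 was listed at 0 in 3 libraries. Cyp7a1 and Cyp8b1 were chosen after their values were seen.

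Among 55 receptor tyrosine kinase genes in the table, of which 26 were tested, Met was the third highest in 2D and the fourth in 3D. The genes above it in both cultures were Axl and Epha2, which fell by 0.55 each (adjusted p = 0.00109 and 0.00117). Ddr1, a collagen receptor, had 121.4 and 127.8 TPM in 2D and 144.8 and 144.5 TPM in 3D. It was thus below Met in both 2D libraries and above it in both 3D libraries, with a log2 difference of 0.21 (adjusted p = 0.0168) that was lost without 3D replicate 1 or 3D replicate 2 (0.0894 and 0.0868). Of the 22 tested kinases that are no members, 8 rose and 8 fell, beside 23.4% and 27.1% of all tested genes. Their median of 0.10 turned to -0.02 without 2D replicate 1. Of the 8 that rose, 1 was under 1 TPM in 2D and entered the test through its 3D level.

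**Figure D5:**
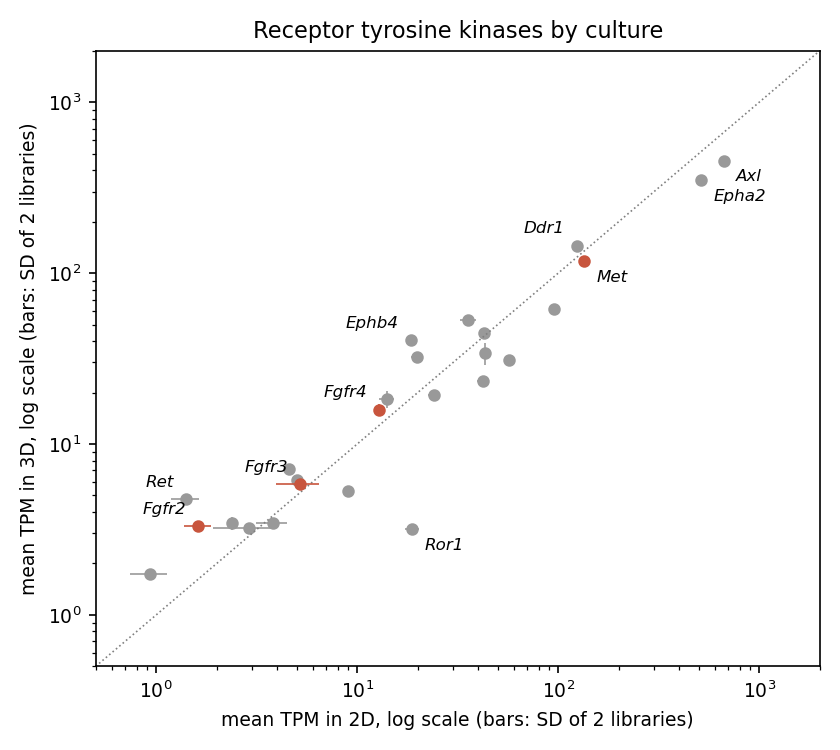
Mean TPM in 3D against mean TPM in 2D for tested receptor tyrosine kinase genes, on logarithmic axes, with members in red, the others in grey, bars for the SD of 2 libraries and a dotted line where both cultures are equal. Met lies near the upper end just under the line, with 135 TPM in 2D and 117 TPM in 3D, and Fgfr2 lies above the line at 1.62 and 3.30 TPM.

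By likeness of profile over the 4 libraries, the genes nearest to Fgfr2 among 11972 compared were Matn2, Ccng2 and Ckmt1, at Euclidean distances of 0.0314, 0.0370 and 0.0435 on centred log2(TPM + 1). All 3 differed by between 0.69 and 0.72 in log2 between cultures, close to Fgfr2 because they were picked for that likeness. Those nearest to Hgfac were C2cd5, Adap2 and Cep85l, at 0.00786, 0.0101 and 0.0122. Of these, Adap2 and Cep85l did not pass the test between cultures (adjusted p = 0.126 and 0.121). C2cd5 passed (0.0477), but its call was lost in 7 of 13 alternatives, among them the fit with no filter (0.103). Within a distance of 0.1 lay 33 genes for Fgfr2 and 404 for Hgfac. The distance is not scaled to the size of a change, so these counts cannot be compared. With 4 libraries such likeness is a description.

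Cell type markers and libraries were checked beside these results. The hepatocyte markers were present and higher in 3D, with all 7 tested ones past the threshold and their sum between 126.8 and 127.5 TPM in 2D and between 585.7 and 601.8 TPM in 3D. Alb, the albumin gene, had 0.819 and 1.20 TPM in 2D and 12.7 and 10.0 TPM in 3D, and the remaining marker, Serpina1a, was listed at 0 in both 2D libraries and reached at most 0.0768 TPM in 3D. The biliary markers summed to between 2294 and 2401 TPM in 2D and between 2269 and 2357 TPM in 3D, but the 4 tested ones all passed, in opposite directions. Krt19 and Krt7, keratin genes, fell by 0.49 and 0.65, while Spp1, the osteopontin gene, rose by 2.35 and Sox9 rose by 0.62. Fibroblast or stellate markers, of which 1 of 6 in the table reached the testing level, summed to between 35.01 and 37.62 TPM in 2D and between 18.74 and 19.74 TPM in 3D. Nearly all of this was Des, and the collagen gene Col1a1 was at no more than 0.594 TPM. Endothelial markers, all under the testing level, summed to between 0.806 and 1.36 TPM in 2D and between 1.61 and 2.06 TPM in 3D. Leukocyte markers summed to between 20.1 and 21.2 TPM in 2D and between 22.3 and 26.3 TPM in 3D, mostly Cd68, which did not pass. The T cell marker Cd3e fell by 0.94 (adjusted p = 0.00555). It had 2.00 and 1.72 TPM in 2D and 0.496 and 0.490 TPM in 3D and entered the test through its 2D level. Ptprc was at no more than 0.296 TPM. Mitochondrial genes took 5.44% and 5.37% of the TPM in 2D and 6.78% and 6.51% in 3D, and between 13891 and 14256 genes reached 1 TPM in a library. The part of these shifts in the changes of Fgfr2, Fgfr4, Met and Hgfac was not tested.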

How the data were processed

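RNA-seq libraries of AML12 cells, 2 from 2D and 2 from 3D cultures, were prepared by the authors with a stranded mRNA kit. Reads were trimmed with cutadapt 1.8.3 and Trimmomatic 0.36, aligned to GRCm38 with HISAT2 2.0.5 and quantified with StringTie 1.3.4, and the authors deposited the resulting TPM of each library, unpooled. The table also holds the authors' fold changes and p-values from DESeq2, which were not used.

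The culture in its label gave each library its group. Every gene whose mean reached 1 TPM was compared after log2(TPM + 1) transformation by limma (version 3.58.1, R 4.3.3), using lmFit and a robust eBayes with an intensity trend, two-sided, with culture as the only factor and Benjamini-Hochberg adjustment over all 14116 genes tested, at a threshold of 0.05. A member under that mean received values without a test. TPM keeps no read depth, so no counting interval was computed, and TPM are relative, so they shift when other genes change. The fitting code was tested on simulated data first. Positions were checked against GENCODE M21. Promoters were searched with Python 3.11.15, and figures were drawn with matplotlib 3.10.9.

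The members and the gene lists were chosen with earlier results of these data known. Named genes are all 9 members, for each list up to 3 of its most abundant genes and up to 3 called genes with the largest change, the 3 nearest profiles of the called member with the largest rise and of that with the largest fall, and cell type markers. Any other gene in the text was picked with its values in view. The alternatives were pseudocounts of 0.1 and 5, a filter at 5 TPM or none, median centring, quantile normalization, TPM recomputed after removal of the 20 highest and the mitochondrial genes, the replicate number as a block, a constant prior variance without robust estimation, and each library left out in turn.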

Additional observations from a re-analysis of the deposited data

How the results depend on the processing

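Fgfr2 kept its direction in all 12 alternatives that include it, and Fgfr4, Met and Hgfac kept theirs in all 13. The number of members that passed was 4, against 1 with no filter, 2 with the replicate block, 2 with a constant prior variance and 0 to 3 with a library left out. It was 2 without 2D replicate 2, 1 without 3D replicate 1 and 0 without 3D replicate 2. Fgfr4, at 0.28 in each, had an adjusted p of 0.106 with no filter, 0.0646 with the replicate block and 0.0524 with a constant prior variance. For Met, at -0.20 in each, these were 0.0646, 0.0596 and 0.0660, and Hgfac, at -0.27, had 0.0554 with no filter. With a library left out, the log2 differences ranged from 0.04 to 0.35 for Fgfr1, 0.62 to 0.81 for Fgfr2, -0.0562 to 0.36 for Fgfr3, 0.21 to 0.35 for Fgfr4, 0.19 to 0.43 for Klb, -0.25 to -0.0016 for Fgf21, -0.24 to -0.17 for Met, -0.05 to 0.16 for Mst1r and -0.34 to -0.20 for Hgfac. Fgfr3 reversed to -0.0562 without 2D replicate 1. A pseudocount of 0.1 gave 0.44 for Fgfr1, 0.99 for Fgfr2, 1.13 for Klb, -0.69 for Fgf21 and 0.25 for Mst1r. A pseudocount of 5 gave 0.33 for Fgfr2, 0.22 for Fgfr4 and 0.0746 for Klb. Over all genes 7122 passed, against 4720 to 5954 with a library left out, the lowest without 3D replicate 1, and 6248 with the replicate block. Deviations of same-numbered libraries correlated at -0.05 across genes, and replicate numbers were therefore not treated as pairs. With a constant prior variance, 5 genes passed in the HGF and MST1 list and 6 in the ATF4 list. Leaving out a library gave 2 to 3 called FGF ligands, 13 to 18 MET partners and 3 to 8 genes of the ATF4 list. List medians moved with the pseudocount, the filter and the library left out. Without 2D replicate 1 they were 0.14 for FGF co-receptors, 0.77 for PPARA targets, -0.02 for heparan sulfate genes and -0.02 for other receptor tyrosine kinases. Without 2D replicate 2 they were 0.78 for PPARA targets and 0.11 for heparan sulfate genes, and without 3D replicate 1 0.13 for FGF co-receptors. With pseudocounts of 0.1 and 5 they were 0.69 and 0.23 for FGF ligands, 0.20 and 0.01 for the HGF and MST1 list, and 0.94 and 0.60 for PPARA targets, and a pseudocount of 5 gave 0.14 for FGF co-receptors. With no filter they were -0.00068 for FGF ligands, 0.09 for co-receptors, 0.02 for the HGF and MST1 list, 0.72 for PPARA targets and 0.02 for bile acid genes. A mean TPM of at least 5 gave 0.15 for co-receptors, 0.20 for the HGF and MST1 list, 0.75 for bile acid genes, -0.03 for heparan sulfate genes and -0.31 for other receptor tyrosine kinases, and quantile normalization gave 0.53 for FGF ligands. Of 68 tested genes that are no members and that the naming rule allows, or that overlap a member, not all of which are named in the text, 12 lost their call in at least 1 alternative and none reversed. The cause was not tested. Fgfr2 and the 4 members under 1 TPM have no value at a mean of at least 5 TPM.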
